A study of Drosophila melanogaster with 3 samples.

Results

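Divergent promoter summits are points of strongest ChIP-seq signal that lie between transcript starts of 2 protein-coding genes transcribed away from each other. They are within 500 bp upstream of an annotated start of each. In embryos of the fruit fly, 737 summits, or 9.0% (95% Wilson interval 8.40 to 9.64%) of the list of reproducible peaks of GFP-tagged CG7839, met this rule. The authors name that list after the irreproducible discovery rate (IDR), and it is called the IDR list. The 737 summits lay upstream of 1420 distinct genes. A further 1685 summits, or 20.6%, lay upstream of exactly 1 gene and serve as the comparison here, 41 lay upstream of several genes on 1 strand only, and 5725 lay upstream of no start, which together with the 737 make up the whole list. Chromatin immunoprecipitation with an antibody against GFP was carried out on whole embryos of both sexes, 0 to 24 h old, from 1 transgenic line in which CG7839 carries GFP at its C-terminus. The labels give 1 group of 3 biological replicates and no untagged or treated group, so each comparison is between classes of summits within the same lists. The labels do not say which promoter drives the tagged gene or whether the native CG7839 gene remains.

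In the compact fly genome many genes stand head to head, so that a single short stretch of DNA holds the core promoters of both and the nucleosome-poor region that they share. Housekeeping genes are common in this arrangement, and their promoters often carry the DNA replication-related element (DRE), bound by Dref, and other elements in place of a TATA box. CG7839 is annotated as Noc1, a nucleolar complex protein whose yeast counterpart acts in assembly of the large ribosomal subunit.

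The stretches between the starts are shown for 8 pairs, to let the position of the summit be read against the letters of the shared promoter. The first 6 are the strongest divergent summits with starts at most 300 bp apart and no annotated exon between them, leaving out 1 chromosome arm. RpL34a and Trmt61 was the strongest such pair with 2 matches to the DRE, and RpS27 and Nup37 the strongest with a cytoplasmic ribosomal protein gene; both were added after their values were seen. All are intergenic, are read on the plus strand of dm6 from RefSeq, and run from the base after the start of the minus-strand gene, named first, to the base before the start of the plus-strand gene. Capitals mark every match on either strand to 10 promoter motifs that are named with the motif results. Letters are given there for all but Ohler 6 and Ohler 7. The capitals from base 2 between Lon and PIG-F are an Ohler 7 match.
Art3 and mRpS10 (chr3R:15229409-15229664): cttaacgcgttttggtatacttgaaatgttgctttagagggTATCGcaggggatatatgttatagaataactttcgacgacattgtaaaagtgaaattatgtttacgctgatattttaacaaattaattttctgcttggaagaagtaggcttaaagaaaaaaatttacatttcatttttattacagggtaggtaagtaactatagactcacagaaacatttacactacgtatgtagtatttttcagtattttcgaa
CG13390 and CG17294 (chr2L:8376798-8377034): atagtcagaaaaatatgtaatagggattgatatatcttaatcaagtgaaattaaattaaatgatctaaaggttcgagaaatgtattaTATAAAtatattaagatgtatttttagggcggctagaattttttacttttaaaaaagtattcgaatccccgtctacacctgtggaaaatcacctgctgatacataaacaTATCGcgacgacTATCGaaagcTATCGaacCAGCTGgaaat
Tcs5 and CHMP2B (chr3L:5139396-5139618): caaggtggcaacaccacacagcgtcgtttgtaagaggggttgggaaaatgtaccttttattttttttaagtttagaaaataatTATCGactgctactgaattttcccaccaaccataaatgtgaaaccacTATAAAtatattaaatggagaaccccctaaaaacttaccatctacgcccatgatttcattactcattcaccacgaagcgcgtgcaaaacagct
Lon and PIG-F (chr3L:19612200-19612454): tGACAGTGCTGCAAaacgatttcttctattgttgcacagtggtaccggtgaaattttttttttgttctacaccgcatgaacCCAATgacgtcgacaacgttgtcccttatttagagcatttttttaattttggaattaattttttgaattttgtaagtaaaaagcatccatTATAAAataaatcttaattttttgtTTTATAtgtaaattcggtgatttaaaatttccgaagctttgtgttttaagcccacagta
Mkk4 and SLIRP2 (chr3R:8650797-8651083): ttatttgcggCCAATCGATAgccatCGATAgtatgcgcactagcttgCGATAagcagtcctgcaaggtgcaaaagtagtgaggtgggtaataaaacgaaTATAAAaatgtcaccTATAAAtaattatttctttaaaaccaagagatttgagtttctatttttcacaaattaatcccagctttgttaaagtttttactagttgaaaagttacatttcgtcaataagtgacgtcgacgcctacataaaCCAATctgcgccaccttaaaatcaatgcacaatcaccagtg
CG7601 and CIA30 (chr3R:29736746-29736964): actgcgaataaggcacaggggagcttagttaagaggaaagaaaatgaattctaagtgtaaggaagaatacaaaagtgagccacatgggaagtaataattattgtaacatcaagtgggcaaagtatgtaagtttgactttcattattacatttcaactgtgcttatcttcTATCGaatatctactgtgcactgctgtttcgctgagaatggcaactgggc
RpL34a and Trmt61 (chr3R:26059268-26059495): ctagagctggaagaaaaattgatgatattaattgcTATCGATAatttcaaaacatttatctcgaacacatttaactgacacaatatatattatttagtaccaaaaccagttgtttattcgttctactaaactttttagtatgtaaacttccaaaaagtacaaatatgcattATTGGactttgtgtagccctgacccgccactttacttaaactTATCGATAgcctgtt
RpS27 and Nup37 (chr3R:25247515-25247657): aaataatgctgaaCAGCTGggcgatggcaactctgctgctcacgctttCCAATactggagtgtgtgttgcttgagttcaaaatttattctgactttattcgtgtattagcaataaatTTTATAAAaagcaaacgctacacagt

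Base positions are counted from 1 at the left end of each stretch. Between Art3, a protein arginine methyltransferase, and mRpS10, a small-subunit protein of the mitochondrial ribosome, the summit was at base 123 in replicate 1, 130 in replicate 2 and 129 in replicate 3 of a stretch of 256 bases. The only motif match there was a CGATA, on the minus strand, whose first base in the stretch was base 42. Between CG13390 and CG17294 the summit was at bases 84, 84 and 83 of 237, and the 3 CGATA matches, at bases 197, 209 and 219, stood next to the CG17294 start. Between Tcs5, a kinase of tRNA modification, and CHMP2B, a subunit of the ESCRT-III membrane complex, it was at bases 111, 112 and 115 of 223. Between Lon, a mitochondrial protease, and PIG-F, of glycosylphosphatidylinositol anchor synthesis, it was at bases 124, 122 and 131 of 255. In each of these 4 pairs the 3 replicates put the summit within 9 bp. Between Mkk4, a stress-signalling kinase, and SLIRP2 the summit was at bases 162, 165 and 166 of 287, with 3 CGATA matches at bases 16, 26 and 48 beside the Mkk4 start. Between CG7601 and CIA30, an assembly factor of respiratory complex I, it was at bases 91, 107 and 99 of 219. The pooled summit base was outside every capitalised match in these 6 stretches, and the match nearest to one was the TATAAA starting at base 88 between CG13390 and CG17294, whose pooled summit was at base 83. Between RpL34a and Trmt61 the DRE matches started at bases 36 and 214, near either end, and the summit was at bases 64, 74 and 90 of 228. Between RpS27 and Nup37 it was at bases 33, 23 and 26 of 143, beside the ribosomal protein gene. These genes had another divergent summit, at rank 1607, beyond the Nup37 end of the printed stretch. It was 223 bp from RpS27 and 134 bp from another start of Nup37.

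Divergent summits stood mostly near the centre of the gap, a little over 100 bp from the nearer start. The starts on either side were a median of 336 bp apart (quartiles 260 and 452, range 19 to 958). The nearer start was a median of 116 bp from the summit (quartiles 84 and 155) and the farther one 218 bp (quartiles 157 and 305). Single-gene summits were a median of 200 bp from their start (quartiles 116 and 320). The median distance from the midpoint between the starts was 42.5 bp (quartiles 18 and 85.5), and it was 42.5 bp, 41.5 bp and 46 bp for the divergent summits of replicates 1, 2 and 3. Of the 737 summits, 401 (54.4%) were within 50 bp of the midpoint and 448 (60.8%) in the middle one of 3 equal parts of the gap, which held 36.4% of the bases where the rule allows a summit. For gaps of up to 300 bp the middle part held 198 of 288 summits (68.8%) and 33.3% of the allowed bases, and for gaps over 400 bp 133 of 249 (53.4%) and 42.4% of the allowed bases. The gene on the plus strand was the nearer one for 393 summits, that on the minus strand for 342, and 2 were equidistant.

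**Figure D1:**
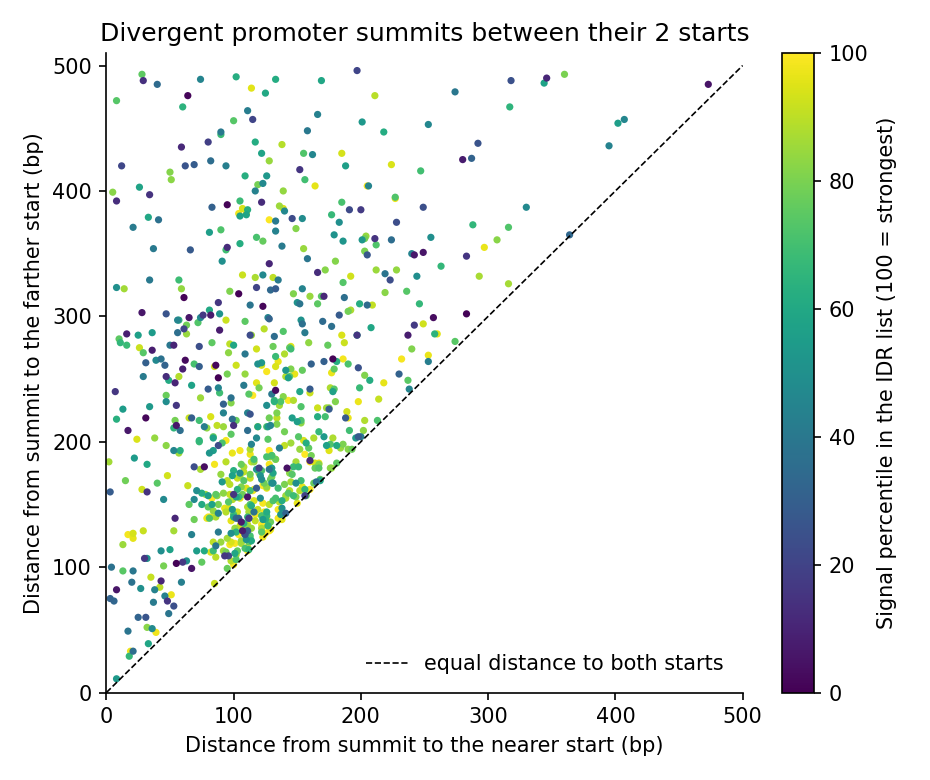
Distance from each of the 737 divergent summits to the nearer start (x, bp) and the farther start (y, bp), coloured by the percentile of signal in the IDR list. The points are densest just above the line of equal distance, at 84 to 155 bp from the nearer start, and a sparser set has 1 start within 50 bp and the other over 200 bp away.

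In wider gaps fewer summits were within 50 bp of the midpoint, a fixed distance that is a smaller part of a wider gap. With starts 251 to 300 bp apart, 131 summits had median distances of 111 bp and 166 bp to their starts and 74.0% of them were within 50 bp of the midpoint. With starts over 400 and up to 600 bp apart, 205 summits had median distances of 155 bp and 332 bp, and 26.3% were within 50 bp of the midpoint. A pair of summits fell between starts of the same genes 47 times, with a median gap of 419 bp around the first of the pair along the arm. In 42 of these 47 cases 1 summit was nearer to each gene. The median separation over all 47 was 204 bp (range 199 to 2550). The summits of Elp6 and Dic1, 2550 bp apart, and of dup and SRPK, 602 bp apart, lay between different starts of these genes. Among closer summits this also held for Ate1 and Hsl, CG12091 and pns, CG12974 and pzg, and DPCoAC and CG5180. It held as well for Hat1 and Rpn5, RpL18 and Neos, RpS27 and Nup37, and kat80 and Prosalpha4. Neighbouring summits anywhere in the IDR list were at least 199 bp apart, and no closer pair was listed. Snx21 and aph-1, a subunit of the gamma-secretase complex, had summits of ranks 335 and 1281 that lay 200 bp apart, the first 164 bp from Snx21 and the second 204 bp from aph-1. CG9008 and p38b, a stress-activated kinase, had summits of ranks 597 and 1719 that lay 213 bp apart.

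The extremes of the rule were few. The narrowest gap was 19 bp, between MED6 of the Mediator complex and Naa80, whose summit ranked 3776 and was found in replicates 2 and 3 only, at ranks 3216 and 4408. The widest was 958 bp, between l(1)G0469 and the splicing helicase gene Prp16, whose summit ranked 7771 in the IDR list, and 6638, 13197 and 8546 in replicates 1, 2 and 3. At the limit of the rule, the farther start was 496 bp away for the summit between Jon65Ai and tant, and 493 bp away for those between Cul5 and Bicra and between CG12929 and RpL31. Just outside it, the farther start was 501 bp away between NTPase and lilli, 504 bp between mRpS25 and nmdyn-D6 and 506 bp between CG3609 and CG15390.

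Most summits had 2 genes within reach: 703 of the 737, with 30 that had 3, 2 that had 4, 1 that had 5 and 1 that had 10. The summit with 10 lay among the pre-mod(mdg4) genes, short annotated precursors that are joined to mod(mdg4) RNA by trans-splicing, at base 21365423 of arm 3R. It ranked 285 in the IDR list, and 235, 347 and 280 in replicates 1, 2 and 3. A group of small genes, CG42379, CG42380 and CG42381, with PIG-M faced NC2alpha, which encodes a repressor of TATA-dependent transcription, at rank 1875. CG42497 and Tim10, of the mitochondrial import machinery, faced CG42496 and Ppcdc, of coenzyme A synthesis, at rank 4165, with no match in replicate 1. The other summit with 4 genes lay between CG31650 and CG33995, CG44000 and CG44001, at rank 5012. Annotated exons covered 110 of the 737 summits, and 557 gaps held no exon base. Not all members were intergenic: 181 summits lay within the annotated span of a protein-coding gene.

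The 12 strongest divergent summits of the IDR list were near the top of every replicate list, whose reads the pooled signal that chose them also holds. The signal value deposited with each peak has no stated scale and was used only as a rank within its list, 1 being the strongest, and the replicates' ranks are given in the order 1, 2 and 3. The summit between Art3 and mRpS10 (3R, base 15229536) ranked 6 in the IDR list, and 5, 6 and 6 in replicates 1, 2 and 3 (mean 5.67 ± 0.577, SD, n = 3). It was 128 bp from the Art3 start and 129 bp from the mRpS10 start. Between Chro, which encodes the chromodomain protein Chromator of interband chromatin, and Ssl1, of the general transcription factor TFIIH, the summit (3L, base 22878896) ranked 14, 12 and 18. The summit between CG13390 and CG17294 (2L, base 8376880) ranked 20, 18 and 19, within 1 bp in all 3 replicates. The summit between Tcs5 and CHMP2B ranked 15, 29 and 22 (3L, base 5139508). These 4 pairs had starts 224 to 321 bp apart.

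Further down, mRpS23, another mitochondrial ribosomal protein gene, shared a summit with CenG1A, of the ArfGAP family, at ranks 22, 19 and 17 (2L, base 13835454). This gap was wider, with the summit 382 bp from mRpS23 and 110 bp from CenG1A. Pdrg1 and Pal1 had ranks 27, 30 and 29 (2R, base 9959922). Between eIF4EHP, a cap-binding repressor of translation, and CG18428 the ranks were 34, 42 and 49 (3R, base 24109193), and between Lon and PIG-F 32, 50 and 43 (3L, base 19612321). The summit between mRpL23, of the large mitochondrial subunit, and CG9004 had ranks 36, 68 and 53 (3L, base 2373617). CG11309 and CG7632 had the widest spread of the 12, with ranks 79, 37 and 57 (mean 57.7 ± 21.0, SD, n = 3), although all 3 replicates put the summit on the same base, 21304571 of arm 3L. Mkk4 and SLIRP2 had ranks 50, 72 and 64 (3R, base 8650961). All 12 were thus among the 79 strongest of 30000 peaks in each replicate.

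Of the 737 summits, 634 had a summit within 100 bp in the full lists of all 3 replicates (86.0%, 95% Wilson interval 83.3 to 88.3%), against 87.1% of single-gene summits and 89.6% of all IDR summits. Among the strongest peaks of each replicate, as many as the IDR list holds, 551 (74.8%, interval 71.5 to 77.8%) were found in all 3, against 69.1% (66.9 to 71.3%) of single-gene summits and 67.3% of all IDR summits. The divergent class was thus below the whole list by the first count and above it by the second. The IDR list was drawn from the same reads, so neither count is a test. In the full lists 94 summits were found in 2 replicates, 8 in 1 and 1 in none. The one found in none lay between Apc and spg, at rank 7527. Those matched within 100 bp in 1 only lay between CG13531 and RpL23, Nbr and Noc2, CG11597 with CG5946 and RpL10Ab, CG14767 and gcl, hzg and mRpS31, CG12974 and pzg, Tudor-SN and mRpL17, and Hsc70-5 and CG8531. Of these pairs, 4 had another divergent summit as well: CG13531 and RpL23, CG14767 and gcl, CG12974 and pzg, and Hsc70-5 and CG8531.

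For the 634 summits in all 3 lists, the positions of the 3 replicates spanned a median of 33 bp (quartiles 18 and 58, range 0 to 159), and 190 (30.0%) spanned at most 20 bp. The same gene was the nearer one in all 3 replicates for 467 (73.7%). With starts up to 300 bp apart this held for 161 of 255 (63.1%), and with wider gaps for 306 of 379 (80.7%). In narrow gaps the nearer gene therefore often changed within the spread of positions. Over the same 634 summits, Spearman's rho between the ranks of 2 replicates was 0.924 to 0.948, as a description of lists that share 1 control.

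Within the same number of strongest peaks of each replicate, 773, 792 and 903 were divergent in replicates 1, 2 and 3, or 10.05 ± 0.858% (SD, n = 3). The share was lower at the weaker end of every list. In the IDR list it was 15.9% among the first 1000 summits, 8.70% among those ranked 4001 to 5000 and 4.0% among those ranked 7001 to 8000. The means of the replicates over the first and the last of these bins were 15.7 ± 2.20% and 5.67 ± 0.252% (SD, n = 3). The share of single-gene summits in the IDR list was 33.0% in the first 1000, 18.3% at ranks 4001 to 5000 and 17.9% at ranks 7001 to 8000.

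**Figure D2:**
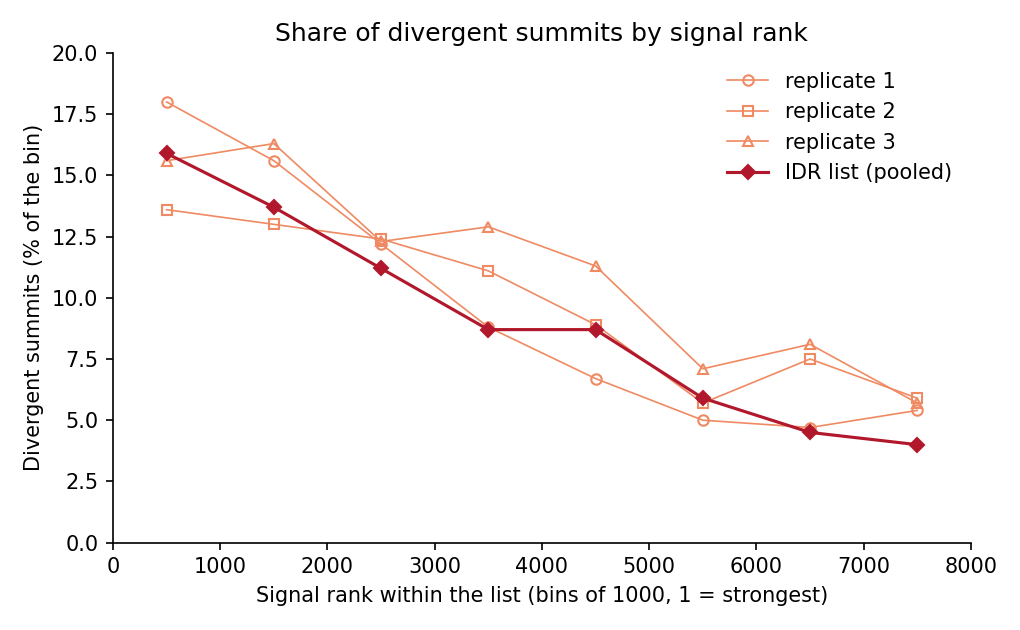
Share of summits that were divergent (y, %) by signal rank in bins of 1000 (x, 1 = strongest), for the IDR list and each replicate list. The share in the IDR list is 15.9% in the first bin and 4.0% in the last, and all 3 replicates are lower at the weak end.

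The median percentile of signal in the IDR list, with 100 the strongest, was 69.1 for divergent summits, 57.7 for single-gene summits and 50 for all. In the replicates, the mean percentile among the strongest peaks was 64.1, 58.7 and 59.3 for divergent summits of replicates 1, 2 and 3, and 56.5, 53.1 and 53.5 for single-gene summits. The difference was 6.35 ± 1.08 percentile points (SD, n = 3), higher in 3 of 3 replicates, with an exact sign-flip permutation p of 0.25, two-sided, the smallest that 3 replicates allow. Among summits 51 to 200 bp from the nearest start, a subset chosen after seeing the data, the difference was 8.56 ± 1.58 points. It was 12.5 points with starts within 250 bp and 15.2 points over all 30000 peaks. The share of summits matched in both other replicates was 72.2, 69.9 and 61.8% for divergent summits and 69.4, 64.8 and 62.1% for single-gene summits. This difference, 2.52 ± 2.76 points, was positive in 2 of 3 replicates (exact sign-flip permutation p = 0.5, two-sided) and was not larger than its spread. It was 4.75 points without replicate 1, 1.36 points without replicate 3, 9.70 points with starts within 250 bp, and 6.06 ± 1.46 points among summits 51 to 200 bp from the nearest start. The matched shares of the 3 replicates count matches among the same lists and are not independent, so their SD and p are descriptive only.

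In the other direction, the gene pairs were counted whether or not they had a summit. Of 2666 divergent gene pairs with starts at most 1000 bp apart, 745 (27.9%) had an IDR summit of this class between starts. Each copy of the repeated histone genes on 2L counts as a pair. None of these copies had such a summit in the IDR list or among the strongest peaks of any replicate. The share differed between pairs grouped by the smallest distance between any of their starts, although the summit could lie between other starts. It was 20.8% of 635 pairs with starts up to 150 bp apart, 38.8% of 242 pairs over 200 and up to 250 bp apart, 45.2% of 400 pairs at 301 to 400 bp, 32.4% of 475 pairs at 401 to 600 bp and 7.10% of 465 pairs at 601 to 1000 bp. In the replicates the means were 23.4 ± 2.42% up to 150 bp, 48.8 ± 2.96% at 301 to 400 bp and 7.74 ± 0.775% at 601 to 1000 bp (SD, n = 3). The ranges of the 3 replicates did not overlap between these 3 bins. Up to 150 bp, 132 pairs had a summit, while only 37 summits of the whole class had nearest starts that close. Many of these pairs thus had their summit between other starts, farther apart. A narrow gap also holds few bases for a summit, and beyond 500 bp the rule itself leaves ever fewer.

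**Figure D3:**
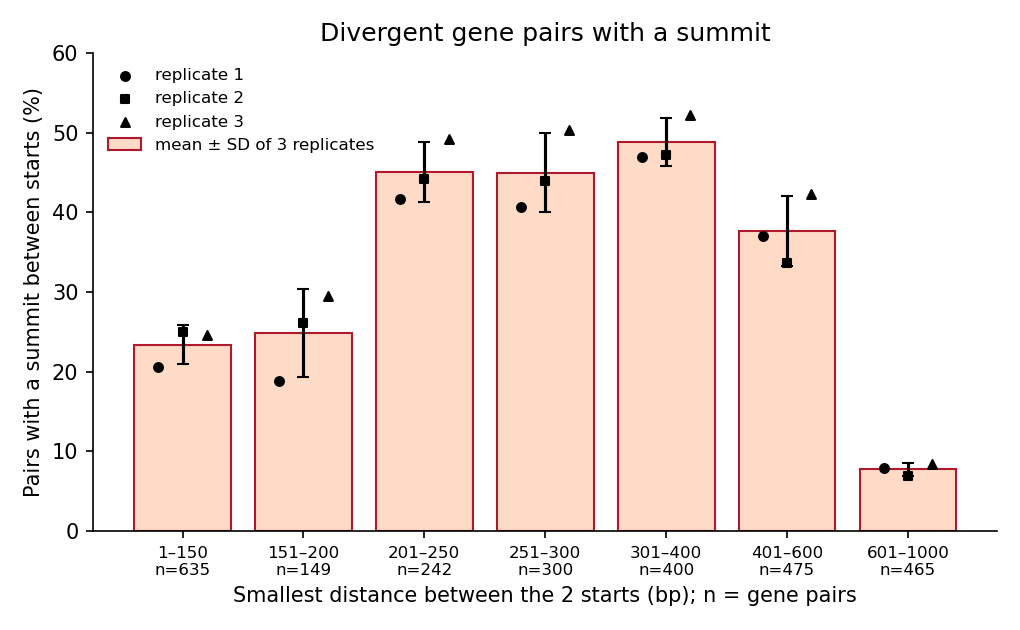
Divergent gene pairs with a summit between starts (y, %) by the smallest distance between their starts (x, bp). Bars are means of the strongest peaks of 3 replicates with SD, and symbols are replicates; the highest mean is 48.8% at 301 to 400 bp and the lowest 7.74% at 601 to 1000 bp.

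Genes with a divergent partner had upstream summits more often than other genes did. Of 5050 protein-coding genes with such a partner, 1696 (33.6%) had an IDR summit within 500 bp upstream, against 1221 of 8918 other genes (13.7%). In the replicates the shares were 37.5 ± 2.89% and 14.4 ± 0.583% (SD, n = 3). A summit between 2 genes counts for both of them, so the bases were also compared. A divergent base is still upstream of at least 2 genes and a single-gene base of 1, for which the densities were not adjusted. Divergent windows, 765339 bp in all, held 1.01, 1.03 and 1.18 summits per kb in replicates 1, 2 and 3, and single-gene windows, 7244972 bp in all, held 0.234, 0.247 and 0.257 per kb. The density was a mean of 4.36 times higher in divergent windows, higher in 3 of 3 replicates (exact sign-flip permutation p = 0.25, two-sided, the smallest possible). Over bases outside annotated exons, an alternative chosen after seeing the data, it was 3.65 times higher, and over all 30000 peaks of each replicate 2.78 times higher.

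The ratio of the densities was largest a little over 100 bp from the nearest start. At 101 to 150 bp, outside exons, divergent windows held 2.07 ± 0.132 summits per kb and single-gene windows 0.389 ± 0.00851 per kb (SD, n = 3), a ratio of 5.32. The ratio was 2.38 at 1 to 50 bp, 3.56 at 151 to 200 bp, 1.45 at 251 to 300 bp and 0.955 at 301 to 350 bp. In single-gene windows the density was highest at 151 to 200 bp, with 0.438 ± 0.0341 per kb. Beyond 350 bp fewer than 20000 divergent bases remained and no value is given.

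**Figure D4:**
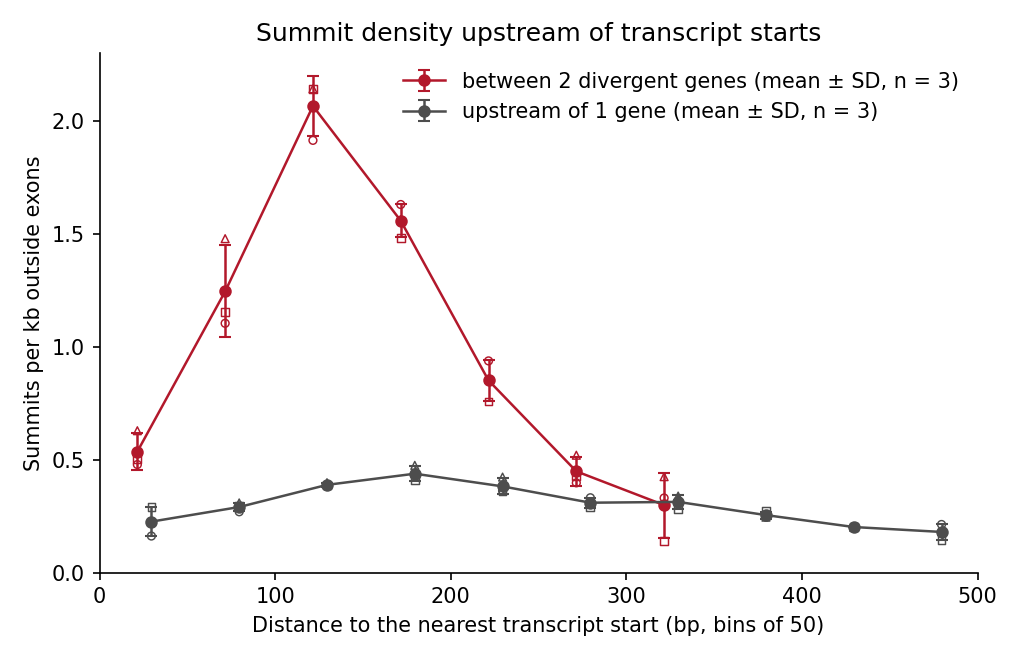
Summits per kb outside exons (y) by distance to the nearest start in bins of 50 bp (x), among the strongest peaks of each replicate. Points are means with SD over 3 replicates and open symbols are the replicates; divergent windows reach 2.07 per kb at 101 to 150 bp, where single-gene windows have 0.389 per kb, and the curves meet at 301 to 350 bp.

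The 1420 genes next to a divergent summit were 10.2% of the 13968 protein-coding genes and 28.1% of the 5050 with a divergent partner. Gene lists, chosen by symbol, are described by their counts beside these shares. Among genes of translation, 31 of 87 cytoplasmic ribosomal protein genes had a divergent summit, or 57.4% of the 54 with a partner. Another 33 of the 87 had only upstream summits that were not divergent, against 1497 of all 13968 protein-coding genes. Upstream summits at these genes were thus not particular to the divergent class. The strongest divergent one lay between RpS27 and the nuclear pore gene Nup37 at rank 326, with ranks 240, 403 and 445 in replicates 1, 2 and 3. RpL34b and CG8132 followed at rank 479, and Nelf-E, which encodes an elongation factor subunit, and RpL14 at rank 715. These summits lay close to the ribosomal protein gene: 30 of 36 were nearer to it, at a median of 57 bp, against 221 bp to the partner. In replicates 1, 2 and 3 the ribosomal protein gene was nearer for 27 of 33, 26 of 33 and 27 of 34 matched summits. The 36 single-gene summits upstream of ribosomal protein genes were also near, at a median of 37.5 bp.

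Mitochondrial ribosomal protein genes were placed otherwise. A divergent summit lay next to 25 of 73, or 43.1% of the 58 with a partner, and the strongest were those at mRpS10, mRpS23 and mRpL23. The mitochondrial gene was the nearer one for 11 of 26 summits, at a median of 164 bp, against 152.5 bp to the partner. In the replicates it was nearer for 9 of 24, 9 of 22 and 12 of 25. Aminoacyl-tRNA synthetases, which charge tRNAs, had 13 of 35 genes next to a divergent summit, or 54.2% of the 24 with a partner. Their strongest summits lay between Hem and IleRS at rank 468, SerRS and CG17260 at rank 530, and Patsas and ThrRS at rank 657. Translation factors had 4 of 53, or 14.8% of the 27 with a partner: eIF4EHP at rank 38, eRF3, of termination, opposite the splicing gene SC35 at rank 888, eIF1, of start codon selection, opposite RpL28 at rank 1318, and eIF3m. Another 10 of the 53 had only upstream summits that were not divergent. Of 34 ribosome assembly genes, 6 had a divergent summit, or 21.4% of the 28 with a partner. They included l(3)72Dn opposite Tmx3 at rank 636, Non1 opposite l(2)k10201 at rank 2205 and Non2 opposite Mrtf at rank 3108. Noc2, a partner of Noc1 in yeast, had a summit opposite Nbr at rank 4143 that was matched within 100 bp in replicate 1 only, while replicate 3 had a summit elsewhere between these genes.

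Among genes of transcription and RNA processing, 6 of 30 RNA polymerase subunit genes had a divergent summit, or 31.6% of the 19 with a partner. The strongest lay between CG10584 and Polr3E at rank 312, 140up and Polr2B at rank 476, and CG11247 and Polr2H at rank 931. Mediator, which links activators to RNA polymerase II, had 9 of 29, or 42.9% of the 21 with a partner, led by MED30 and Rev1 at rank 652, elm and MED27 at rank 829, and CG12321 and MED17 at rank 1170. Splicing genes had 10 of 40, or 29.4% of the 34 with a partner, led by U2af50 and PIG-Q at rank 323, SC35 and eRF3, and Msh6 and Prp31 at rank 1471. Of 19 insulator and promoter-binding protein genes, 5 had such a summit, or 45.5% of the 11 with a partner. Those were Chro, Cp190 opposite CG4338 at rank 87, M1BP opposite CG8202 at rank 463, Dref opposite RpL13 at rank 1451, and pzg.

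Of the remaining lists, proteasome genes had 8 of 48, or 30.8% of the 26 with a partner, led by l(2)37Bb and Rpn3 at rank 1490, Rpn13 and CtsL1 at rank 1715, and Hat1 and Rpn5 at rank 2532. Oxidative phosphorylation genes had 11 of 89, or 25% of the 44 with a partner, led by ND-ASHI and the fumarase gene Fum1 at rank 288, TppII and ND-MWFE at rank 554, and ND-51 and CG13994 at rank 1309. Cell cycle genes had 9 of 49, or 31.0% of the 29 with a partner, led by orb and Cdc16 at rank 584, Cdk1 and mRpS7 at rank 1143, and the replication genes RPA1 and Mcm2 at rank 1511. No divergent summit lay next to any of 123 cuticle genes, of which 13 had a partner, or of 230 chemoreceptor and odorant-binding protein genes, of which 37 had one. For a count of 0, a rough upper limit of 3 genes was taken, or 23.1% and 8.11% of those with a partner. This limit is an approximation and not a Wilson interval. Genes of 2 lists faced each other at 7 summits: SC35 and eRF3, Cdk1 and mRpS7, RpL28 and eIF1 with 2 summits, Dref and RpL13, mRpL39 and Prosbeta2, and Prosbeta1 and Rrp42.

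The DNA around divergent summits was slightly richer in A and T, with a median GC content within 100 bp of the summit of 31.3%, against 33.8% for single-gene summits and 32.8% for all IDR summits. The motifs searched in the same windows, on both strands, were the DRE (TATCGATA), the core of the BEAF-32 site (CGATA, which each DRE also holds), the core of Motif 1 (GGTCACAC), the Ohler 6 and Ohler 7 motifs, the E-boxes CAGCTG and CACGTG, the GAGA repeat (GAGAG), the TATA box (TATAAA) and the CCAAT box. The DRE was in 64 of 737 divergent windows (8.68%, 95% Wilson interval 6.86 to 10.9%), 4.39% of single-gene windows and 2.08% of all windows. In replicates 1, 2 and 3 its share was 8.15, 8.84 and 9.63% of divergent windows and 4.01, 5.30 and 5.10% of single-gene windows. The difference of 4.07 ± 0.501 percentage points (SD, n = 3) was positive in 3 of 3 replicates (exact sign-flip permutation p = 0.25, two-sided, the smallest possible). A start lay inside the window for 36.2% of divergent and 20.2% of single-gene summits. Among summits 51 to 200 bp from the nearest start the difference was 2.64 ± 0.842 points. It was 0.881 points within 50 bp of the summit and 12.0 points within 200 bp.

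The DRE matches stood by the starts rather than at the summits. Between the starts nearest to the summit, 151 members (20.5%) of 142 gene pairs held a DRE, with 161 distinct matches. Since some gaps hold a pair of summits, these gave 172 combinations of a match and a summit, whose centres were a median of 123 bp from the summit, 22 (12.8%) of them within 50 bp. The distinct matches were a median of 36.5 bp from the nearer start. Among gene pairs with starts 100 to 400 bp apart, 92 of 477 with an IDR summit (19.3%) and 126 of 824 without one (15.3%) held a DRE, over median gaps of 278 bp and 247 bp.

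Of the other motifs, CGATA was in 40.7% of divergent windows, 30.9% of single-gene windows and 23.5% of all windows, and Ohler 7 in 12.1% of divergent, 5.76% of single-gene and 3.42% of all windows. TATAAA was in 49.8% of divergent, 39.1% of single-gene and 41.6% of all windows. It holds only A and T and was counted at any position, so a match need not be a working TATA box. The part of the GC content of the windows in these shares was not tested. GAGAG, the repeat bound by GAGA factor, went the other way, with 12.8% of divergent windows, 20.5% of single-gene windows and 19.1% of all. Ohler 6 was in 1.63% of divergent and 0.95% of single-gene windows, and the Myc E-box CACGTG in 2.44% of divergent and 1.54% of single-gene windows, with overlapping Wilson intervals. For these 6 motifs the values of the 3 replicates did not overlap between the classes. For the other 3 they did: the E-box CAGCTG was in 9.63% of divergent and 8.07% of single-gene windows. The core of Motif 1 was in 3.66% of divergent and 3.32% of single-gene windows, and CCAAT in 34.1% of divergent and 34.7% of single-gene windows.

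**Figure D5:**
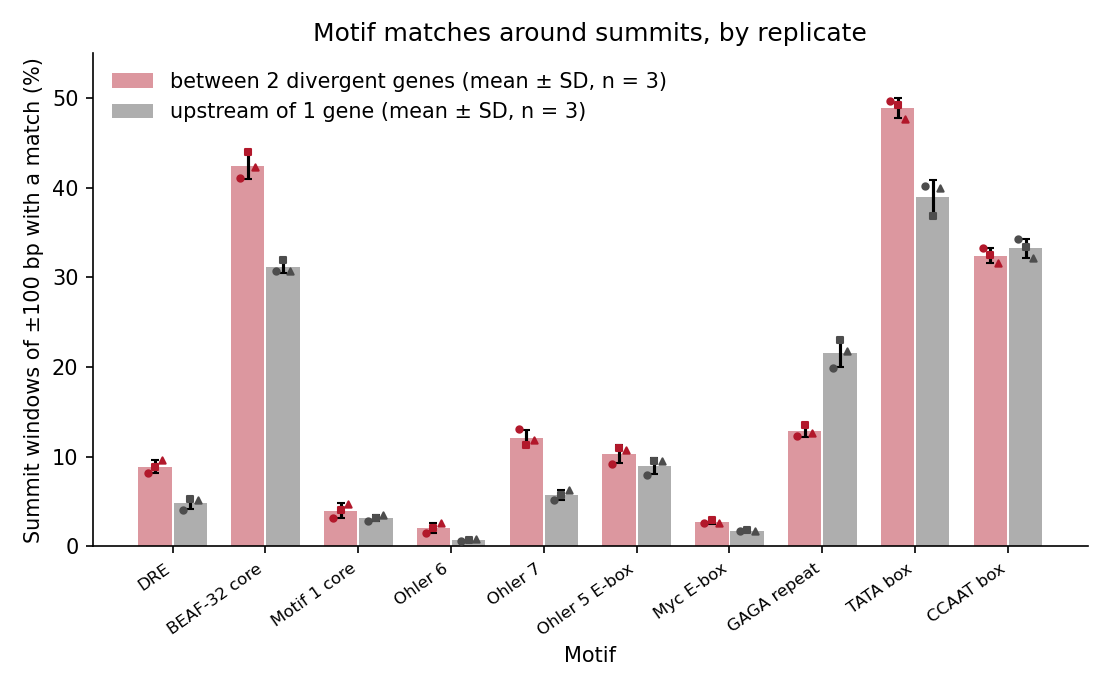
Share of summit windows, 100 bp to each side, with a motif match (y, %) for divergent (left, red) and single-gene (right, grey) summits among the strongest peaks of each replicate. Bars are means with SD over 3 replicates and symbols are replicates; the divergent symbols all lie above the single-gene symbols for the DRE, the BEAF-32 core, Ohler 6, Ohler 7, the Myc E-box and the TATA box, and below them for the GAGA repeat.

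Divergent summits were spread over all the large arms. There were 135 on 2L, 127 on 2R, 179 on 3L, 208 on 3R, 88 on X, and 0 of 15 IDR summits on chromosome 4. On X they were 5.35% of the IDR summits of that chromosome, against 8.92 to 11.2% on the 4 large autosomal arms. Counted over gene pairs with starts at most 1000 bp apart, 21.6% of 403 pairs on X had such a summit, against 26.9% of 509 on 2L, 22.8% of 543 on 2R, 34.0% of 518 on 3L and 32.4% of 682 on 3R. The pairs on 2L include the repeated histone genes, none with a summit, which lower its share. In the replicates the means were 24.4 ± 2.11% on X and 26.2 ± 3.61% on 2R (SD, n = 3), whose ranges overlapped, and 36.4 ± 1.36% on 3L and 36.8 ± 2.75% on 3R. A non-coding start lay within 500 bp of 14 divergent summits (1.90%), on either side and not only in the gap. None of these starts was of a tRNA, miRNA or snRNA gene. The same share is not given for other summits, so it cannot be compared between classes.

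Outside the IDR list, the pooled list of 30000 summits held 1040 divergent summits, of which 70.9% were in the IDR list, against 44.2% of its 3811 single-gene summits and 27.3% of all pooled summits. The IDR list is exactly the pooled peaks of largest signal, so these shares restate rank. In the full replicate lists of 30000 summits, 1029, 1226 and 1376 were divergent.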

How the data were processed

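ChIP-seq peak lists of 3 biological replicates in 1 group were used. Per the text files deposited beside them, each replicate list was made from its own alignments and a control common to all, the pooled list from the 3 alignments, and the list named for the irreproducible discovery rate (IDR) from these, all on dm6. Aligner, peak caller and thresholds: not given in the sources used here. Control reads were not analysed here, and the lists give no read depth, which is thus unknown. The signal value deposited by the authors is a score with no stated scale and served only as a rank, and the deposited summit offset gave each position. Between 2 and 7 offsets per list that passed the interval end were set to its last base. Peak lists hold no expression, so the tissue and the tag could not be checked. No summit was identical in position and signal between replicates (0 cases).

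Transcript starts came from Ensembl release 115 (13968 protein-coding genes, 19630 starts), and sequence from the RefSeq assembly with dm6 coordinates. A summit counted as upstream at 1 to 500 bp from a start, and as shared between lists within 100 bp. Divergent windows are the bases where a summit would be divergent, and single-gene windows those where it would be upstream of 1 gene. Tests were exact sign-flip permutations over the replicates, so p measures only the spread between these samples. Wilson intervals (95%) cover counting error over summits or genes only, and neighbours are not independent. Members, gene lists and motifs were chosen with earlier results of these data known. Named genes are those of the 12 strongest divergent summits, up to 3 per gene list, the widest and narrowest gap, and summits with 3 or more genes, of which those with 3 are given as a count; 1 of the 12 is not reported here. Other pairs (those at the limit of the rule, with 2 summits, found in 1 or no replicate, or with a further gene of a list) were named after their values were seen. Gene list sizes count symbols, and near-identical genes were not separated. Counts of gene pairs, in the DRE comparison too, likewise hold every copy of the repeated histone genes. Class and matching code was tested on 3000 simulated summits, all placed correctly. Python 3.11.15, numpy 2.4.6, pandas 2.3.3, scipy 1.17.1 and matplotlib 3.10.9 were used.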

Additional observations from a re-analysis of the deposited data

How the results depend on the processing

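The 4 differences and ratios between divergent and single-gene summits had the same sign under every alternative run for them. The share found in all replicate lists was below that of all IDR summits with the full lists (86.0% against 89.6%) and above it with the strongest peaks (74.8% against 67.3%). The count of divergent summits was 436 with starts within 250 bp in place of 500 bp, and between 547 and 1040 under the other alternatives that kept all replicates, apart from 502 in the stronger part of the IDR list, of 50% of its peaks; with 1 replicate left out in turn it was 580 to 599. The share found in all replicate lists was 69.6% with a match within 50 bp, 91.7% within 250 bp, 68.7% by an overlap of 50% of both intervals, as above among the strongest peaks, and 91.6% for the same stronger IDR peaks. The median distance from the midpoint was 24.8 bp with starts within 250 bp, 63.5 bp within 1000 bp and 34.2 bp for the same stronger IDR peaks, and a shorter reach bounds this distance by construction. Leaving out each replicate gave density ratios of 4.25 to 4.45, percentile differences of 5.73 to 6.72 and DRE differences of 3.84 to 4.34 points; the difference in matched share, 1.36 to 4.75 points, moved by more than 1.5 times without replicate 1 or replicate 3 and was 1.5 points with starts within 1000 bp. The cause of these moves was not tested. No paired analysis was possible because the labels give a single group to block; the differences themselves were taken within each replicate. The exact sign-flip test over 3 replicates cannot pass 0.05, and unknown read depth leaves the detection limit of weak summits unknown.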
